A study of Mus musculus with 4 samples.

Results

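Wild-type mouse embryos were compared between the end of gastrulation and early organogenesis, gene by gene, from 1 RNA library at each stage. The genes described are the autosomal genes that reached at least 1 FPKM (fragments per kilobase of transcript, scaled by the number of mapped fragments) in either library, 13133 of the 36808 genes in the deposited table. The earlier library, called E8, was labelled E7.5 to 8.0 and the later one, called E10, was labelled E10.0 to 10.5. Both were made from whole wild-type embryos of the strain labelled (C3H/HeH x 101/H)F1. The series also holds 1 library at each stage from embryos homozygous for Tc, an allele of T (Brachyury), and these are used here only to set the same stage difference beside the wild-type one. The labels do not say how many embryos went into a library or whether extra-embryonic membranes were removed. With 1 library per stage there is no replicate check, so the differences below carry no SD and no test.

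Around E8 the mouse embryo still has an active primitive streak and tail bud that produce mesoderm, and it is surrounded by visceral endoderm, an epithelium that absorbs maternal nutrients and secretes serum proteins. The heart begins to beat and the first red blood cells form in the yolk sac at about this time. By E10 the neural tube is closing or closed, neurons are being born, the limb buds and pharyngeal arches have grown out, and primitive red cells circulate through the body.

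Ratios are E10 over E8 on a log2 scale after adding 1 to each FPKM value, so that differences of genes at low levels are understated. A gene is called higher or lower here when that ratio is at least 1 in absolute size. A gene under 1 FPKM in 1 library was kept only through the other library, so it could be called in 1 direction only. Of the 13133 genes, 938 were higher at E10 (7.14%) and 616 were lower (4.69%). The other 11579 genes, 88.2%, differed by less. The median ratio was 0.02, and the genes outside the lowest and highest twentieth lay between -0.97 and 1.20. A ratio of at least 2 in absolute size was reached by 221 genes in the higher direction (1.68%) and 129 in the lower (0.982%). Genes listed at 0 in 1 library made up 168 of the higher and 72 of the lower genes, and no fold is given for these.

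The spread between embryos is unknown, and so is the read depth. The one technical error that can be read from the files is re-estimation, since each library was quantified in a second deposited table. Between those estimates the log2 values differed with an SD of 0.05 for the E8 library and 0.15 for the E10 library, and the E10 over E8 ratio differed with an SD of 0.16 over 11296 genes. Of the 1554 genes called, 1349 were called in the same direction from the other estimates and 1 in the opposite direction. Some genes have no usable estimate in the stage table: 199 genes listed at 0 in both libraries there stood at 1 FPKM or more at E10 in the other table. Hoxa5 at 10.3 FPKM and Plvap, an endothelial gene, at 11.7 FPKM are examples, so a gene listed at 0 is not read as silent.

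The libraries also differed in the sex of the RNA. The Y-linked gene Eif2s3y stood at 81.1 FPKM at E8 and was listed at 0 at E10, and Ddx3y stood at 20.7 and 0.0330 FPKM. Xist, the RNA of the inactive X chromosome, stood at 0.193 FPKM at E8 and 122 FPKM at E10, and in Tc/Tc at 0.619 and 124 FPKM. Stage and sex cannot be told apart in these libraries, and genes of the X and Y chromosomes are left out.

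**Figure D1:**
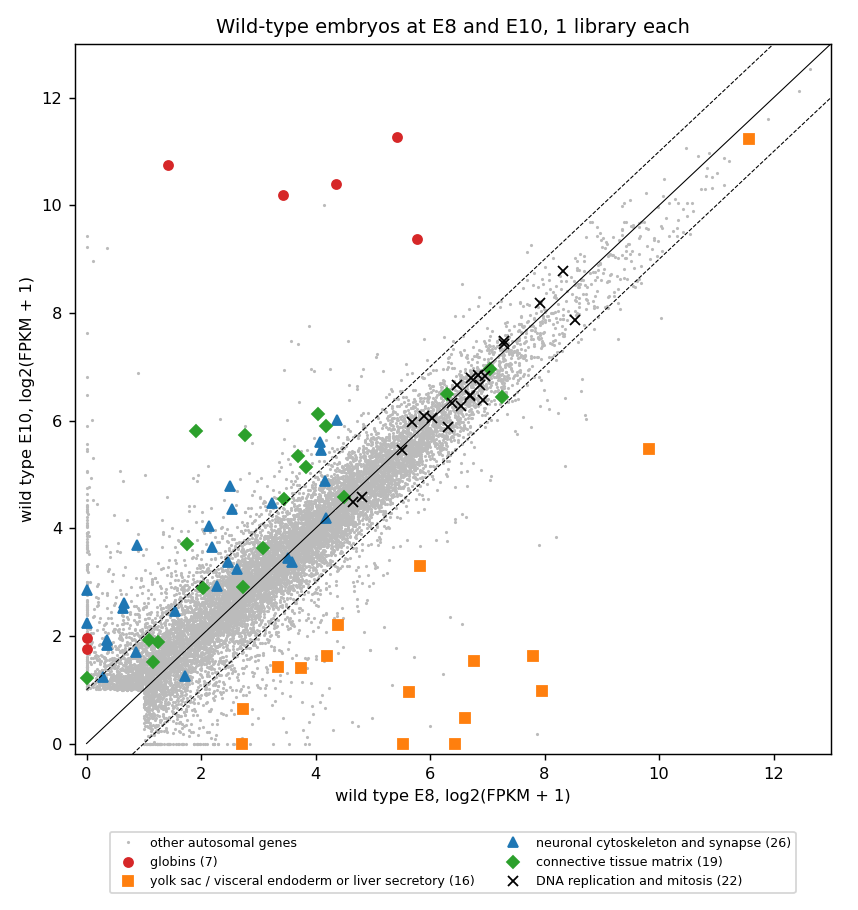
Each point is 1 autosomal gene, with log2(FPKM + 1) in the wild-type E8 library on the x axis and in the wild-type E10 library on the y axis; the solid line marks equal values and the dashed lines a log2 ratio of 1 in either direction. All 7 globins (red) lie above the upper line, 15 of 16 yolk sac, visceral endoderm and liver secretory genes (orange) lie below the lower line, and the 22 replication and mitosis genes (crosses) lie between the lines.

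Transcripts of visceral endoderm formed the lowest group at E10. Of 16 measured secretory genes of yolk sac, visceral endoderm or liver, 15 were lower and 0 higher, with a median log2 ratio of -3.53 against 0.02 over all genes. Apoa1, the main protein of high-density lipoprotein, stood at 247 FPKM at E8 and 0.979 FPKM at E10, a log2 ratio of -6.97 and the lowest among the genes that the naming rule admitted. Apob, the backbone protein of the lipoproteins that visceral endoderm secretes, went from 96.3 to 0.388 FPKM (-6.13). Ttr and Rbp4, the carriers of thyroid hormone and retinol, stood at 220 and 107 FPKM at E8 and at 2.10 and 1.88 FPKM at E10. Apoe, another lipoprotein component, was the most abundant of the protein-coding members, with 909 FPKM at E8 and 43.4 FPKM at E10. Apoc2, a lipoprotein lipase cofactor, stood at 85.1 FPKM at E8 and was listed at 0 at E10.

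The members of that list did not all differ by the same amount. Afp, the fetal serum protein made by yolk sac and later by liver, was lower by less (55.5 and 8.87 FPKM, -2.52), and so were the fibrinogen chains Fgg (-2.10) and Fgb (-1.91). H19, an imprinted noncoding RNA that embryonic mesoderm and endoderm also make, stood at 3056 and 2395 FPKM, a log2 ratio of -0.35. Albumin (Alb), the serum protein of the liver, was listed at 0 at E8 and stood at 0.977 FPKM at E10, just under the minimum. The promoter of Afp is shown for the binding motif of HNF1, a family of endoderm regulators. The stretch holds the 120 bases before the start of the gene on the plus strand, chr5:90490594-90490713 in GRCm38.p6, from RefSeq, and the capitals mark the HNF1 palindrome (GTTA, any base, T, any 2 bases, then TTAAC), which begins 39 bases before the start, and TATAA.

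Afp: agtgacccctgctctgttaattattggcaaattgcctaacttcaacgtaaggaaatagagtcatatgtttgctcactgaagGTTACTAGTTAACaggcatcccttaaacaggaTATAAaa

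The HNF1 palindrome occurred in 17 of 32851 promoter windows of this length (0.0518%), searched on both strands, and TATAA in 11.9%. Among the 16 measured secretory genes, 12 had a promoter in the table and 1 of these held the palindrome. A match of letters is a description of the sequence only. Hnf4a, a nuclear receptor that regulates endoderm genes, was also lower at E10 (25.9 and 0.257 FPKM, -4.42).

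The uptake machinery of visceral endoderm differed in the same direction, with 10 of 11 measured members lower, 0 higher and a median of -2.14. Cubn, the endocytic receptor cubilin, stood at 63.3 FPKM at E8 and 0.249 FPKM at E10 (-5.69). Its partner Amn stood at 4.87 FPKM and was listed at 0, and the partner receptor Lrp2 stood at 21.2 and 4.06 FPKM (-2.14). Dab2, the endocytic adaptor of these receptors, stood at 131 and 28.9 FPKM (-2.14). Lysosomal proteases followed, with Ctsh at 74.2 and 1.45 FPKM (-4.94) and Lgmn at 85.3 and 17.1 FPKM (-2.26). Of the 7 measured cathepsin genes as a family, 4 were lower and 0 higher, with a median of -1.67. Slc2a2, a glucose transporter of absorptive epithelia and liver, stood at 13.4 and 0.0938 FPKM (-3.72).

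Several other genes among the 15 lowest are also known from extra-embryonic tissue. Car4, a membrane-bound carbonic anhydrase, stood at 293 FPKM at E8 and 13.3 FPKM at E10 (-4.36). Phlda2, an imprinted gene that limits placental growth, stood at 39.3 and 1.13 FPKM (-4.24). The summed FPKM of the listed secretory genes was 4940 at E8 and 2464 at E10. H19 made up most of it at both stages, with 3056 and 2395 FPKM. The summed FPKM of the listed uptake genes was 558 and 98.0. In whole embryos, fewer cells of a type and less RNA per cell cannot be told apart, and neither can be separated from how much membrane each library held. Few trophoblast markers could be measured: of 13 genes listed, 5 were listed at 0 in both libraries, among them Tpbpa, and 4 were measured, with 2 lower. Of 7 decidua markers, the prolactin-family genes Prl8a2 and Prl3c1 were listed at 0 in both libraries, and the 5 measured members, genes that embryonic mesenchyme and muscle also express, were all within the size rule, with a median of 0.83 and a summed FPKM of 21.1 at E8 and 37.7 at E10. As a gene listed at 0 is not read as silent, these zeros do not show that trophoblast or decidua was absent. The part of extra-embryonic tissue in the differences described here was not tested.

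**Figure D2:**
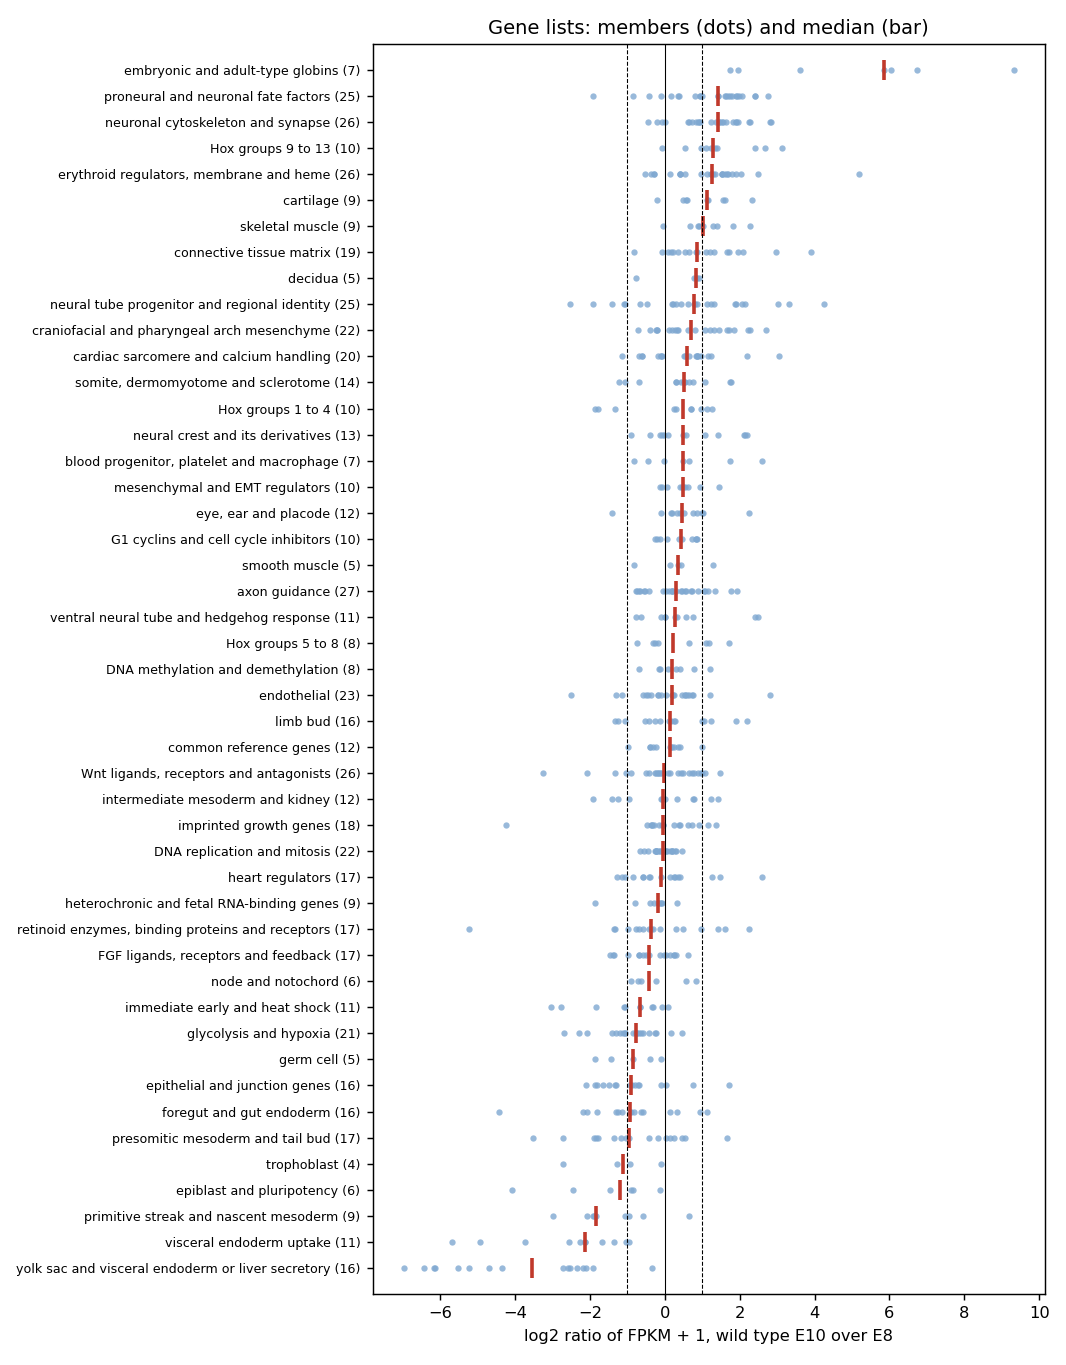
Each dot is the log2 ratio of FPKM + 1 of 1 measured gene, E10 over E8 in wild type, for the 47 gene lists, with the number of measured genes in parentheses; the red bar is the list's median and the dashed lines mark a log2 ratio of 1 in either direction. Medians run from 5.86 for the globins down to -3.53 for the secretory genes of yolk sac, visceral endoderm or liver.

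Genes of the pluripotent epiblast were lower or little different at E10. Of 6 measured members, 3 were lower and 0 higher, with a median of -1.19. Pou5f1, which encodes the pluripotency factor Oct4, stood at 18.9 FPKM at E8 and 0.184 FPKM at E10 (-4.07). L1td1, an RNA-binding protein of pluripotent cells, stood at 9.60 and 0.926 FPKM (-2.46). Tdgf1, the Nodal co-receptor Cripto, stood at 2.56 and 0.289 FPKM (-1.47). Nanog, a pluripotency factor, was near the detection minimum in both libraries at 1.20 and 1.01 FPKM. Sall4, a zinc finger factor that acts with Oct4 and later in limb and heart, stood at 89.0 and 48.8 FPKM (-0.85).

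RNA-binding genes of early development mostly lay within the size rule. Lin28a, which blocks maturation of the let-7 microRNAs, stood at 270 FPKM at E8 and 73.2 FPKM at E10 (-1.87). Its paralog Lin28b stood at 35.7 and 33.9 FPKM (-0.07). Hmga2, a chromatin protein and let-7 target, stood at 129 and 162 FPKM (0.33), and the 3 Igf2bp genes lay between -0.27 and -0.12. Lin28a was thus the 1 gene of 9 in the list past the size rule, beside 11.8% past it over all genes. Of 5 measured germ cell genes, Ifitm1, an interferon-inducible membrane protein gene, and Prdm1, a transcriptional repressor, were lower (-1.87 and -1.44), and both are also expressed outside the germ line.

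Genes of the primitive streak and nascent mesoderm were lower as a group. Of 9 measured members 6 were lower and 0 higher, with a median of -1.84. T, the T-box factor of streak, tail bud and notochord that the Tc allele affects, stood at 36.8 FPKM at E8 and 7.99 FPKM at E10 (-2.07). Foxh1, the DNA-binding partner of Smad2 in Nodal signalling, stood at 12.6 and 0.706 FPKM (-2.99). The homeobox genes Evx1 and Lhx1 stood at 6.15 and 4.42 FPKM at E8 and at 0.946 and 0.440 FPKM at E10. Mixl1, a homeobox factor of the streak, stood at 1.08 FPKM and was listed at 0. The earliest streak genes were already under the minimum at E8, with Eomes at 0.343, Mesp1 at 0.321 and Nodal at 0.597 FPKM. Fgf8, a growth factor of the streak that the brain, limb and arches use later, stood at 11.8 and 7.6 FPKM (-0.57).

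In the presomitic mesoderm and tail bud list, 8 of 17 measured genes were lower and 1 was higher, with a median of -0.96. The caudal homeobox genes were the lowest. Cdx1 stood at 17.0 FPKM at E8 and 0.576 FPKM at E10 (-3.52), and Cdx2 at 20.0 and 2.22 FPKM (-2.71). Msgn1 and Tbx6, which specify presomitic mesoderm, stood at 7.90 and 4.48 FPKM at E8 and at 1.5 and 1.44 FPKM at E10. Wnt8a, a Wnt ligand of the posterior embryo, stood at 10.2 and 0.166 FPKM (-3.26). Cyp26a1, which degrades retinoic acid in the tail bud, stood at 9.19 and 3.0 FPKM (-1.35).

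Nrarp, a feedback inhibitor of Notch, was the higher member of the list (4.18 and 15.4 FPKM, 1.66). Within the size rule were the Notch ligands Dll1 and Dll3 with ratios of 0.25 and 0.53, the glycosyltransferase Lfng with 0.47, and the Wnt feedback gene Axin2 with 0.03. These genes are also used outside the tail bud, in neural tube and other tissues. The 6 measured node and notochord genes were all within the size rule, with a median of -0.43, and Noto, a notochord homeobox gene, was under the minimum in both libraries.

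Endoderm and epithelial lists each held 7 genes that were lower at E10. Of 16 measured genes of foregut and gut endoderm 7 were lower and 1 higher, with a median of -0.92. The higher member was Nkx2-1, a regulator of thyroid, lung and forebrain, at 0.255 and 1.77 FPKM. Hhex and Sox17, early definitive endoderm regulators that endothelium also expresses, had ratios of -1.30 and -1.15. Foxa2, a pioneer factor of endoderm and floor plate, stood at 5.43 and 3.16 FPKM (-0.63). Among the lower members, Hnf4a and Cldn6 are also expressed in visceral endoderm.

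Of 16 measured epithelial and junction genes, 7 were lower and 1 higher, with a median of -0.90. The simple-epithelium keratins Krt18 and Krt8 stood at 133 and 99.1 FPKM at E8 and at 30.2 and 26.6 FPKM at E10. Cdh1, E-cadherin, stood at 25 and 8.31 FPKM (-1.48). Trp63, the p63 factor of stratifying surface epithelium, was the higher member at 0.781 and 4.86 FPKM (1.72). Mesenchymal genes had 1 of 10 measured members higher, beside 7.14% over all genes, and a median of 0.48. That member was Vim, the intermediate filament vimentin, at 206 and 563 FPKM (1.45), and Cdh2, N-cadherin, stood at 48.9 and 65.7 FPKM (0.42).

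Globin RNAs were the highest group at E10, with all 7 measured genes higher and a median of 5.86. Hbb-y, an embryonic beta-type globin of primitive red cells, stood at 1.69 FPKM at E8 and 1727 FPKM at E10, a log2 ratio of 9.33 and an FPKM ratio of 1022. Hba-x, the embryonic alpha-type (zeta) globin, stood at 41.7 and 2470 FPKM (5.86). The adult-type alpha genes Hba-a1 and Hba-a2 stood at 19.4 and 9.85 FPKM at E8 and at 1348 and 1166 FPKM at E10, and since their sequences are nearly identical the split of reads between them is uncertain. Hbb-bh1, the other embryonic beta-type globin, stood at 53.6 and 666 FPKM (3.61). The adult beta genes Hbb-b1 and Hbb-b2, also near copies, were listed at 0 at E8 and stood at 2.88 and 2.36 FPKM at E10.

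The makeup of globin RNA differed between the stages along with its amount. On the FPKM scale, Hbb-bh1 made up 96.9% of beta-type globin at E8 and 27.8% at E10. Hbb-y made up 3.06% at E8 and 72.0% at E10, and the adult beta genes together stayed below the level of either embryonic gene. On the alpha side, Hba-x made up 58.7% of alpha-type globin at E8 and 49.6% at E10, and the adult-type pair the rest. All globins together made up 0.0201% of the total FPKM at E8 and 1.15% at E10.

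Promoters are shown for 3 globin genes that share this direction, the embryonic and an adult-type alpha gene and the embryonic beta-type gene with the highest ratio. Each is the 120 bases before the start of the gene in GRCm38.p6, from RefSeq, written on the strand of the gene. Hba-x lies at chr11:32276480-32276599 and Hba-a1 at chr11:32283552-32283671, both on the plus strand, and Hbb-y at chr7:103853208-103853327 on the minus strand. Capitals mark CACCC, the core of the sites that Klf1-type factors bind, CCAAT, and TATAA.

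Hba-x: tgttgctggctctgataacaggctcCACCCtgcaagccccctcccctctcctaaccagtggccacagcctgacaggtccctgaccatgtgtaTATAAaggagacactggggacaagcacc

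Hba-a1: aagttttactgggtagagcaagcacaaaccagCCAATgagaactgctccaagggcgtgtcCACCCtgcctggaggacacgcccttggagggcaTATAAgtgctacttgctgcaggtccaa

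Hbb-y: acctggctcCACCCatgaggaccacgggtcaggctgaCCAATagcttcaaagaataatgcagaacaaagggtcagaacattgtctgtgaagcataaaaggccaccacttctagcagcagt

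CACCC began 95 bases before the start in Hba-x, 60 in Hba-a1 and 111 in Hbb-y. CCAAT began 88 bases before the start in Hba-a1 and 83 in Hbb-y, and TATAA began 28 bases before it in Hba-x and 27 in Hba-a1. Of the 7 measured globin genes 4 had a promoter in the table, and of these 4 held CACCC, 3 CCAAT and 3 TATAA, where both strands were searched. Over all 32851 promoter windows the shares were 31.7%, 21.3% and 11.9%. GATAA, a form of the site of GATA factors, was in 1 of the 4 globin windows and in 10.5% of all windows. In 16 erythroid genes with a promoter in the table, CACCC was in 10 and GATAA in 6. These matches describe letters and are not binding sites that were measured.

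Other genes of red cells were also higher at E10. Of 26 measured erythroid genes 16 were higher and 0 lower, with a median of 1.27. Slc4a1, the band 3 anion exchanger of the red cell membrane, stood at 0.0829 FPKM at E8 and 38.5 FPKM at E10 (5.19). Epb42, a protein that links band 3 to the membrane skeleton, stood at 0.351 and 4.01 FPKM (1.89). Klf1, the erythroid factor that binds CACCC sites, stood at 0.850 and 4.30 FPKM (1.52). Slc25a37, the mitochondrial iron importer mitoferrin, stood at 5.85 and 18.6 FPKM (1.52).

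The early hematopoietic regulators and much of heme synthesis were within the size rule. Lmo2 and Tal1, which act together in blood progenitors, had ratios of -0.37 and -0.30. The heme enzymes Alad, Urod and Fech lay between -0.29 and 0.40, and Tfrc, the transferrin receptor, stood at 35.6 and 47.6 FPKM (0.41). With a minimum of 5 FPKM in place of 1 the median of the erythroid list was 0.41, since most of the higher members are at low levels. Few leukocyte genes were measurable: 7 of 22 progenitor, platelet and macrophage genes were kept and 2 were higher, the platelet chemokine Pf4 (listed at 0, then 5.03 FPKM) and Cd34, a surface protein of progenitors and endothelium (5.0 and 19.2 FPKM, 1.75).

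Endothelial genes showed calls in both directions, with 2 of 23 higher, 3 lower and a median of 0.19. Over all genes the shares were 7.14% higher and 4.69% lower. Etv2, the transient regulator that starts the endothelial and blood lineages, stood at 8.83 and 0.736 FPKM (-2.50). Emcn, the surface glycoprotein endomucin, stood at 1.5 and 16.7 FPKM (2.82). Cdh5, the VE-cadherin of endothelial junctions, stood at 9.72 and 17.1 FPKM (0.76), and the VEGF receptor Kdr at 22.4 and 14.7 FPKM (-0.58). Pecam1, an adhesion protein of endothelial junctions, was called at 1.20, but its ratio from the other estimates was 0.73.

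The measured Hox genes of the lowest and the highest paralog groups differed in opposite directions. These homeobox genes give cells their place along the body axis, and those of low paralog group number are expressed earlier and farther to the anterior than those of high number. All 3 measured genes of group 1 were lower at E10, with a median of -1.78. Hoxb1 stood at 17.2 and 4.29 FPKM (-1.78) and Hoxd1 at 6.97 and 2.15 FPKM (-1.34). In groups 2 to 4, 2 of 7 genes were higher and 0 lower (median 0.71). Groups 5 to 8 had 3 of 8 genes higher and 0 lower, with a median of 0.23 that turned to -0.18 with the other estimates and with a minimum of 5 FPKM. Of the group 9 genes, Hoxa9 and Hoxc9 were called higher (1.23 and 1.10), while Hoxd9 and Hoxb9 had ratios of 0.54 and -0.08.

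In groups 10 to 13, 5 of 6 measured genes were higher and 0 lower, with a median of 1.90. Hoxd11, a gene of the limb and the posterior trunk, stood at 0.331 and 10.7 FPKM (3.14). Hoxc10 stood at 0.873 and 11 FPKM (2.68) and Hoxd10 at 0.286 and 5.82 FPKM (2.41). Hoxd13, the last gene of its cluster, stood at 0.340 and 2.54 FPKM (1.40), and Hoxa10 at 1.07 and 4.28 FPKM (1.35). Hoxa11 lay just inside the size rule at 0.96. All of these genes but Hoxa10 were under 1 FPKM at E8 and were kept only through E10, so they could not be called lower. The listed genes Hoxc11, Hoxc12, Hoxd12, Hoxa13 and Hoxc13 were under the minimum in both libraries, with ratios between 0.05 and 0.96. With no minimum the median of groups 9 to 13 was 0.96, against 1.29 with it. The genes Hoxa3 to Hoxa7 were listed at 0 in both columns of the stage table although the other table gave between 2.95 FPKM (Hoxa6) and 11.3 FPKM (Hoxa7) at E10, so the middle of the Hoxa cluster is missing here. Hoxd3, Hoxd4 and Hoxd8 had no second estimate of the ratio, and Hoxa9 had 1.23 here and 0.97 with it.

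**Figure D3:**
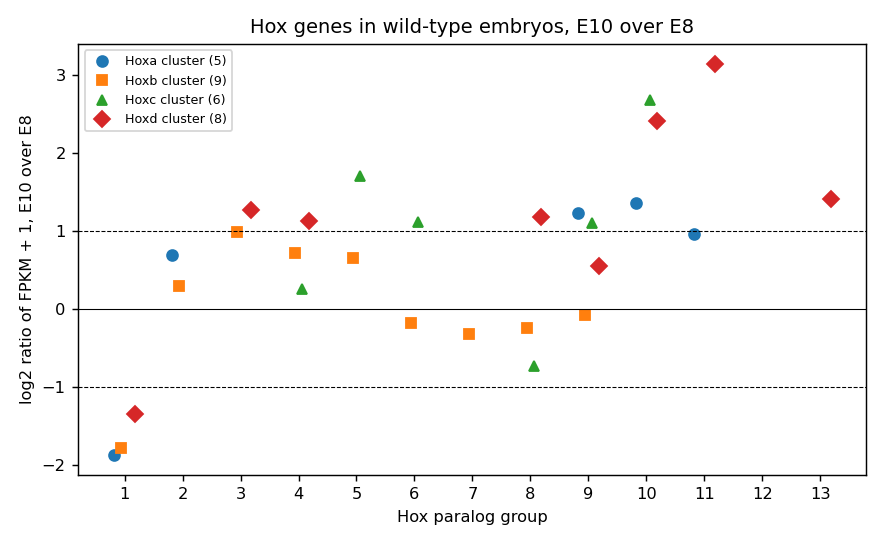
Log2 ratio of FPKM + 1 of each measured Hox gene, wild-type E10 over E8 (y axis), by paralog group (x axis), with 1 point per gene, color and shape giving the cluster and dashed lines at a ratio of 1 in either direction. The 3 genes of group 1 lie below the lower line, and 5 of the 6 genes of groups 10 to 13 lie above the upper line.

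Genes that start neuron formation were higher at E10. Of 25 measured proneural and neuronal fate factors 15 were higher and 1 lower, with a median of 1.43. Another 6 of the 31 listed genes were under the minimum in both libraries, and with no minimum the median was 0.95. Members under 1 FPKM at E8, among them the neurogenins and Neurod genes below, were kept only through E10 and could not be called lower. Neurog1 and Neurog2, the proneural neurogenins, stood at 0.141 and 0.552 FPKM at E8 and at 3.32 and 4.19 FPKM at E10. Neurod1 and Neurod4, which act after the proneural factors, were listed at 0 at E8 and stood at 4.32 and 4.30 FPKM. Ebf3 and Ebf1, factors of migrating new neurons, had ratios of 1.98 and 1.60, and Pou4f1, of sensory neurons, of 1.43. Lhx1 was the lower member (-1.91), a gene that axial mesoderm and kidney precursors also express.

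Structural genes of neurons were higher too, in 15 of 26 measured members with 0 lower and a median of 1.42. Tubb3, the neuronal beta-tubulin, stood at 4.65 and 26.6 FPKM (2.28). Elavl4 and Elavl3, neuronal RNA-binding proteins, stood at 0.846 and 0.576 FPKM at E8 and at 11.9 and 5.15 FPKM at E10. Map2, a dendritic microtubule protein, stood at 4.82 and 19.5 FPKM (1.82). Sst, the peptide somatostatin, was listed at 0 at E8 and stood at 6.20 FPKM. Not every member followed, as Stmn2, a growth-cone protein, stood at 11 and 9.39 FPKM (-0.20), and Kif5c, a kinesin, had 1.52 here but 0.64 from the other estimates. Of 27 measured axon guidance genes 6 were higher and 0 lower (median 0.31), with the ligand Slit1 at 1.35 and 6.98 FPKM (1.76) and the receptor Epha3 at 0.0812 and 3.14 FPKM (1.94).

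Neural tube progenitor genes differed in both directions, with 10 of 25 higher, 5 lower and a median of 0.78. Zic1, a zinc finger factor of the dorsal neural tube, stood at 0.546 and 28.3 FPKM (4.24). The POU factors Pou3f3 and Pou3f2 stood at 0.268 and 0.454 FPKM at E8 and at 11.8 and 10.9 FPKM at E10. Hes5, a Notch target in progenitors, stood at 1.15 and 8.05 FPKM (2.07), and Fabp7, a fatty acid binding protein of radial glia, at 4.93 and 25.1 FPKM (2.14). Pax6, a progenitor factor of forebrain, eye and spinal cord, stood at 27.5 and 69.5 FPKM (1.31), with no second estimate. Sox2, a factor of neural progenitors in general, stood at 29.0 and 50.5 FPKM (0.78).

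The 5 lower members are early regional genes. Hesx1, of the anterior neural plate, stood at 8.46 and 0.648 FPKM (-2.52), and Egr2, of hindbrain segments (rhombomeres), at 3.41 and 0.167 FPKM (-1.92). Pax2, of midbrain, ear and kidney, had a ratio of -1.40, and Hes3 and En1, of the midbrain-hindbrain region, of -1.08 and -1.07. En2, the later engrailed paralog, was higher at 0.261 and 3.73 FPKM (1.91). In the ventral neural tube, 2 of 11 measured genes were higher and 0 lower: Olig2, of motor neuron progenitors (listed at 0, then 4.34 FPKM), and Dbx1, of interneuron progenitors (0.155 and 5.53 FPKM, 2.50). The hedgehog targets Gli1 and Ptch1 had ratios of 0.02 and -0.77. Of 12 measured eye, ear and placode genes 3 were higher and 1 lower, and the highest was Aldh1a3, a retinoic acid enzyme of the eye.

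Of 13 measured neural crest genes, 5 were higher and 0 lower, with a median of 0.49. Tfap2b, a crest and limb factor, stood at 1.04 and 8.39 FPKM (2.21), and Ednrb, the endothelin receptor of migrating crest, at 1.38 and 9.29 FPKM (2.11). Crabp1, a retinoic acid binding protein of crest and hindbrain, stood at 115 and 312 FPKM (1.43). Sox10, the factor kept by glia and pigment cells, stood at 1.87 and 5.03 FPKM (1.07). Foxd3, a factor of newly formed crest and of epiblast, stood at 2.13 and 0.666 FPKM (-0.91).

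Genes of the facial and pharyngeal arch mesenchyme, which crest cells populate, were higher in 10 of 22 measured members with 0 lower and a median of 0.71. Barx1, of jaw and stomach mesenchyme, stood at 0.379 and 7.94 FPKM (2.70). Dlx1 and Dlx2, which pattern the arches and forebrain, were at 0 and 0.421 FPKM at E8 and at 3.81 and 5.62 FPKM at E10. The aristaless genes Alx4 and Alx1 had ratios of 1.85 and 1.09, and Prrx1, a mesenchymal homeobox gene, stood at 6.40 and 23.5 FPKM (1.73). Edn1, the arch signal endothelin-1, reached 1.0 FPKM at E10 and was kept, while Wnt11 at 0.993 and 0.977 FPKM lay just below the minimum.

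Limb bud genes differed in both directions, with 4 of 16 higher, 3 lower and a median of 0.15. Tbx5, the forelimb factor, stood at 2.43 and 3.10 FPKM (0.26), and Fgf10, the signal that starts outgrowth, at 2.89 and 2.58 FPKM (-0.12). Tbx4, a factor of hindlimb and allantois, stood at 6.65 and 2.07 FPKM (-1.32). Lhx9, an early limb and gonad factor, stood at 0.255 and 3.69 FPKM (1.90).

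Connective tissue genes were among the higher groups, with 9 of 19 measured matrix genes higher, 0 lower and a median of 0.85. Col3a1, a fibrillar collagen of loose connective tissue and vessels, stood at 2.74 and 54.8 FPKM (3.90). Postn, the matrix protein periostin of heart valves and fascia, stood at 5.83 and 52.5 FPKM (2.97). Col1a1 and Col1a2, the chains of type I collagen, stood at 15.5 and 11.9 FPKM at E8 and at 68.8 and 39.8 FPKM at E10. Lum, the collagen-binding proteoglycan lumican, stood at 2.37 and 12.1 FPKM (1.96). Fn1, the fibronectin of early matrix, stood at 152 and 85.9 FPKM (-0.82). Of 25 measured genes named as collagens, 11 were higher and 0 lower, with a median of 0.73.

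Cartilage genes were higher in 5 of 9 measured members, with 0 lower and a median of 1.14. Col11a1 and Col9a1, minor cartilage collagens, stood at 1.49 and 3.06 FPKM at E8 and at 11.6 and 11 FPKM at E10. Sox5, a partner of Sox9, stood at 2.59 and 9.87 FPKM (1.60), and Sox9 itself at 24.9 and 37.4 FPKM (0.57). Col2a1, the main cartilage collagen, stood at 22.4 and 50.6 FPKM (1.14, and 0.76 from the other estimates). Acan, the proteoglycan of mature cartilage, was under the minimum in both libraries at 0.119 and 0.0593 FPKM.

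Of 14 measured somite genes, 3 were higher and 2 lower, with a median of 0.51. Meox2 and Pax1, factors of somite and sclerotome, had ratios of 1.77 and 1.75, while Tcf15, of the epithelial somite, stood at 10.5 and 3.95 FPKM (-1.22). Skeletal muscle genes were higher in 5 of 9 measured members with 0 lower. Tnnc2, fast troponin C, was listed at 0 at E8 and stood at 3.82 FPKM, Myh3, the embryonic myosin, stood at 0.0501 and 2.75 FPKM (1.84), and Myog, the myogenin factor, was listed at 0 and reached 1.03 FPKM. The levels of the myogenic factors were low, and Myf5, an early myogenic factor, was under the minimum at 0.809 FPKM at E10.

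The contractile genes of the heart were already abundant at E8. Of 20 measured cardiac sarcomere and calcium genes 4 were higher, 1 was lower and 15 were within the size rule, with a median of 0.59. Of the myosin heavy chains of heart muscle, Myh6 was at 71.8 FPKM at E8 and 67.1 FPKM at E10, and Myh7 at 32.4 and 47.4 FPKM. Actc1, cardiac actin, stood at 79.0 and 144 FPKM (0.86). The higher members were led by Myl2, the ventricular light chain, at 14.1 and 124 FPKM (3.04), and Tnni3, the troponin I isoform of the mature heart, at 6.15 and 31.7 FPKM (2.19). Ankrd1, a sarcomere-linked stress protein, was the lower member at 23.1 and 9.90 FPKM (-1.15).

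Heart regulators had 3 higher and 3 lower members of 17, with a median of -0.09. Nppa, the atrial natriuretic peptide of working chamber muscle, stood at 0.355 and 7.16 FPKM (2.59). Tbx2, which marks muscle that does not form chambers, stood at 1.07 and 4.79 FPKM (1.49). The lower members were Hand1 at 33.5 and 13.2 FPKM (-1.28), also a factor of yolk sac and trophoblast, and the cardiac factors Myocd (-1.15) and Gata5 (-1.07). Nkx2-5, a core cardiac factor, stood at 3.31 and 1.38 FPKM (-0.86). Gata4 was listed at 0 in both libraries, which is treated as no usable estimate and not read as silent. Intermediate mesoderm and kidney genes had 2 higher and 3 lower of 12, beside 7.14% higher and 4.69% lower over all genes. Wt1, of urogenital ridge and epicardium, stood at 0.327 and 2.57 FPKM (1.43).

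Of 26 measured Wnt genes 3 were higher and 4 lower (median -0.01), beside 7.14% higher and 4.69% lower over all genes. Apart from Wnt8a, the ratios beyond the size rule were those of the antagonist Dkk2 (1.48), the ligand Wnt7a (1.08), the antagonist Sfrp2 (1.01), the antagonists Sfrp5 (-2.08) and Dkk1 (-1.02), and the ligand Wnt5b (-1.33). Of 17 measured FGF genes 0 were higher and 3 lower (median -0.41), among them Etv4, a transcriptional target of FGF signals, at 18.1 and 5.95 FPKM (-1.46). Among 17 retinoid genes 3 were higher and 3 lower. Aldh1a2, the main retinoic acid enzyme of early mesoderm, stood at 58.0 and 22.4 FPKM (-1.34), while Aldh1a3 stood at 0.0927 and 4.2 FPKM (2.25). The degrading enzymes showed the same exchange, with Cyp26a1 lower (-1.35) and Cyp26b1 higher at 0.541 and 3.66 FPKM (1.60).

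Part of the genes of energy metabolism were lower at E10. Of 21 measured genes of glycolysis and the hypoxia response 9 were lower and 0 higher, with a median of -0.76. Slc2a3 and Slc2a1, the glucose transporters of placenta, yolk sac and embryo, stood at 423 and 395 FPKM at E8 and at 64.1 and 92.9 FPKM at E10. Slc16a1, a lactate transporter, stood at 93.3 and 18.1 FPKM (-2.30). Pkm, pyruvate kinase, stood at 1486 and 710 FPKM (-1.07) and Tpi1, triosephosphate isomerase, at 820 and 376 FPKM (-1.12), while Ldha, lactate dehydrogenase A, was within the size rule at 1284 and 852 FPKM (-0.59).

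Immediate early genes were lower in part, with 5 of 11 measured immediate early and heat shock genes lower and 0 higher. Fos stood at 35.8 and 3.48 FPKM (-3.04) and Egr1 at 27.6 and 3.22 FPKM (-2.76), both transcription factor genes that respond within minutes to stimulation or tissue handling. The heat shock gene Hspa8 had a ratio of 0.09. Handling of the tissue is not described for each library, and its part in the values of Fos and Egr1 was not tested.

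Most measured genes of cell division and protein synthesis were within the size rule. All 22 measured replication and mitosis genes were within the size rule, between -0.67 for the helicase subunit Mcm7 and 0.46 for the sliding clamp Pcna, with a median of -0.06. The D cyclins, which drive G1, lay just within it at 0.83 for Ccnd1, 0.85 for Ccnd2 and 0.83 for Ccnd3. Of 84 cytosolic ribosomal protein genes 0 were higher and 2 lower (median -0.15), and of 35 proteasome subunits and 71 mitochondrial ribosomal proteins none passed the rule. Nor did any of 33 tRNA synthetases, with a median of -0.38. Among the 10 largest FPKM decreases were the abundant Eef1a1 (-0.30, and -0.74 from the other estimates), Rpl4 (-0.60), Rps24 (-0.76) and Rps3a (-0.87). Rplp1 (0.61) was among the 10 largest increases. Of 12 common reference genes, B2m, a subunit of class I histocompatibility proteins, was higher at the limit (9.95 and 21 FPKM, 1.0), and Polr2a, the large subunit of RNA polymerase II, lay just inside it (-0.99). The median of the 12 reference genes was 0.15 here and -0.29 with the other estimates. Imprinted growth genes had 2 higher and 1 lower of 18, beside 7.14% higher and 4.69% lower over all genes. Igf2, a growth factor gene, stood at 346 and 248 FPKM (-0.48), and Nnat, the neuronal membrane protein neuronatin, at 94.5 and 247 FPKM (1.38).

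The same stage difference was computed for the Tc/Tc embryos, whose libraries are separate from the wild-type ones, and is set beside the wild-type values with no test. There, 967 of 12770 genes were higher at E10 (7.57%) and 471 lower (3.69%), with a median of 0.12. Of 12251 genes measured in both genotypes, 558 passed the size rule in the same direction and 43 in opposite directions. Globins were higher in 7 of 7 in each genotype, with medians of 5.86 in wild type and 5.77 in Tc/Tc. Visceral endoderm uptake genes had medians of -2.14 and -1.88, and matrix genes of 0.85 and 1.11.

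In other lists the medians lay farther apart. The Tc/Tc E10 values come from a separately estimated table, so levels set across genotypes here carry that error too. The cardiac sarcomere list had a median of 0.59 in wild type, with 4 of 20 higher, and of 3.85 in Tc/Tc, with 17 of 18 higher. Myh6 stood at 71.8 and 67.1 FPKM in wild type and at 0.679 and 93.9 FPKM in Tc/Tc, so the libraries lay apart at E8 and near each other at E10. The epiblast gene Pou5f1 also lay apart at E8, at 18.9 FPKM in wild type and 125 FPKM in Tc/Tc. Both E8 libraries were labelled E7.5 to 8.0. Genotype and embryo age within that range cannot be told apart, and neither was tested. The presomitic and tail bud list had 8 of 17 lower and 1 higher in wild type, and 1 lower and 8 higher in Tc/Tc, with medians of -0.96 and 0.55. The glycolysis and hypoxia list had 9 of 21 lower and 0 higher in wild type, and 2 lower and 2 higher in Tc/Tc. Its medians were -0.76 and 0.51. Neuronal cytoskeleton genes had medians of 1.42 and 0.71, with Tubb3 at 26.6 FPKM at E10 in wild type and 6.37 FPKM in Tc/Tc. The list of yolk sac, visceral endoderm or liver secretory genes had medians of -3.53 and -2.13. Its members summed to 4940 and 2464 FPKM in wild type and to 10175 and 4272 FPKM in Tc/Tc. Much of these sums is H19, at 3056 and 2395 FPKM in wild type and at 4600 and 3238 FPKM in Tc/Tc.

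**Figure D4:**
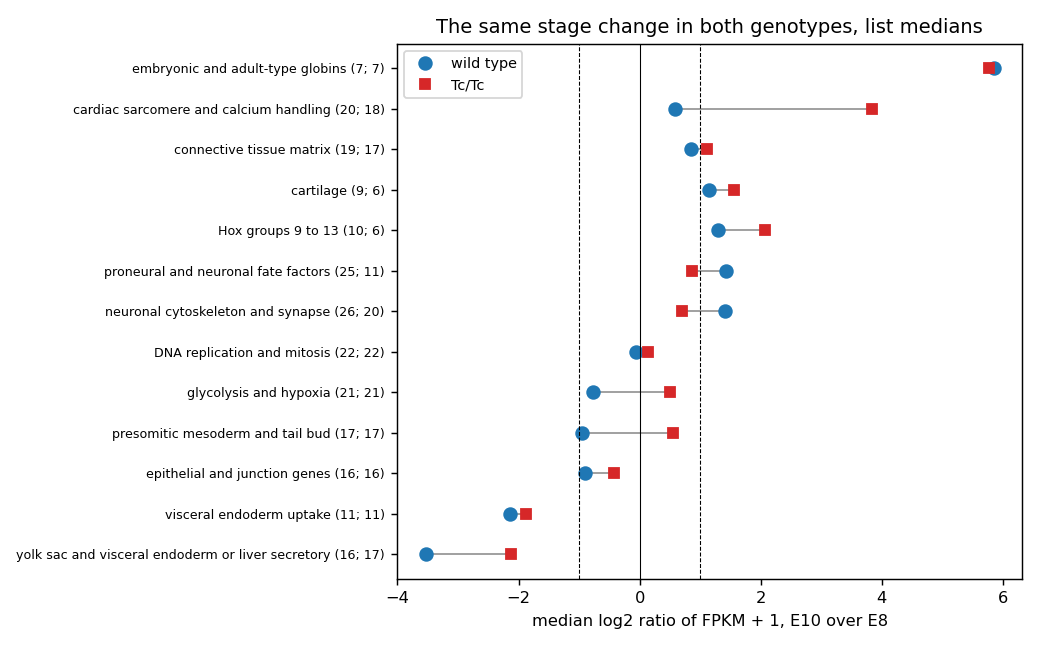
Median log2 ratio of FPKM + 1, E10 over E8 (x axis), for 13 gene lists, in wild type (blue circles) and Tc/Tc (red squares), with the number of measured genes in wild type and then Tc/Tc in parentheses and dashed lines at a ratio of 1 in either direction. The globin medians nearly coincide, and the cardiac sarcomere medians, 0.59 and 3.85, lie farthest apart.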

How the data were processed

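RNA from whole embryos was sequenced as directional mRNA libraries (TRIzol LS, ScriptSeq v2, per the labels' protocols). The authors deposited 4 pairwise tables, which per the file headers hold FPKM for 2 libraries and the natural log of their fold change for each gene. That natural log, deposited by the authors, equalled the ratio of the FPKM columns within 0.01 for all 17636 genes above 0 in both, and the wild-type E10 and E8 columns of the stage table were used from there. Bowtie2, Cuffdiff and mm9 are named in the submitters' processing notes, with versions and annotation not given in the sources used here. FPKM are relative values, so an abundant RNA lowers the others, and depth is unknown. A single column (1) of the Tc/Tc stage table, headed as wild type E10, was left unused, and Tc/Tc E10 values came from the E10 genotype table.

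Of 36808 genes, 17269 at 0 in both libraries were dropped, and 5300 under 1 FPKM in both, which left 14239. Chromosomes were assigned by identifier from GENCODE M21 or, for 261 genes, by RefSeq symbol. This left 13133 autosomal genes. A further 458 genes with no chromosome found, which carried 16.3% of total FPKM at E8 and 22.8% at E10, were left out with the 611 X-linked, 5 Y-linked and 32 mitochondrial genes. Total FPKM was 629159 at E8 and 642271 at E10. Ratios used a pseudocount of 1 and a size rule of 1 on the log2 scale. With 1 library per group no test was run, and "measured" members of a list are those that passed the filters.

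The 47 lists held 757 genes, of which 752 were in the table, by current or older symbol, and 601 were measured. The members and lists were chosen with earlier results of these data known. Genes named are list members, the 15 highest and 15 lowest ratios among the 534 genes above 0 in both libraries, at 5 FPKM or more, called by both deposited estimates and with a unique symbol that is no clone name, the 10 highest per direction that were listed at 0 in the other library, the 10 largest FPKM differences per direction, and the genes of the sex check. Promoters came from RefSeq on GRCm38.p6, where no coordinates of mm9 are implied. Calculations used Python 3.11.15, pandas 2.3.3 and NumPy 2.4.6, and the ratio and call steps were tested on simulated data. Alternatives were other pseudocounts, minimums, scalings, size rules and estimates, and all chromosomes.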

Additional observations from a re-analysis of the deposited data

Results flagged for a closer look

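Among the genes named or listed, 19 passed the size rule in opposite directions in wild type and in Tc/Tc, and this is what marked them for a closer look. Over all 12251 genes measured in both genotypes, 43 passed it in opposite directions and 558 in the same direction. Each genotype has 1 library per stage, and the difference between the genotypes was not tested. Both E8 libraries were labelled E7.5 to 8.0, so genotype and embryo age within that range cannot be told apart. Genes lower at E10 in wild type and higher in Tc/Tc make up 16 of them.

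Of posterior and streak genes, Msgn1 had a log2 ratio of -1.83 in wild type and 2.72 in Tc/Tc, where it was listed at 0 at E8 and stood at 5.57 FPKM at E10. Evx1 had -1.88 and 1.12, Tbx6 -1.17 and 1.16, and the Nodal co-receptor Tdgf1 -1.47 and 1.39. In the heart lists, Ankrd1 had -1.15 in wild type and 4.44 in Tc/Tc, Myocd -1.15 and 2.56, and Gata5 -1.07 and 1.25. For Ankrd1 the genotypes lay apart at E8, with 23.1 FPKM for wild type and 0.468 for Tc/Tc, and less far apart at E10, at 9.90 and 30.8 FPKM.

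Of regional neural genes, Egr2 had -1.92 and 1.64, Hes3 -1.08 and 1.03, and En1 -1.07 and 2.45. Of Wnt pathway genes, the antagonist Sfrp5 had -2.08 and 1.18 and the ligand Wnt5b -1.33 and 1.32. The remaining genes of this direction were Tbx4 (-1.32 and 1.76), Bnip3, a mitochondrial protein induced by hypoxia (-1.31 and 1.15), Lyve1 and Pyy. Lyve1, a receptor of lymphatic endothelium and macrophages, had -1.31 and 2.63, and Pyy, a gut peptide, had -1.24 and 1.49. Both were at low levels. Lyve1 stood at 2.36 and 0.356 FPKM in wild type and at 0.0826 and 5.70 FPKM in Tc/Tc. Pyy stood at 1.36 and 0 FPKM in wild type and at 0 and 1.81 FPKM in Tc/Tc.

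The opposite direction was seen for 3 genes. Nefm, the medium neurofilament chain, had 1.24 in wild type and -1.51 in Tc/Tc. Bcl11a, a repressor of embryonic globins, had 1.65 and -1.18, and the ribosomal RNA entry n-R5s56 had 3.74 and -2.12.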

How the results depend on the processing

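The counts of 938 higher and 616 lower genes moved most with a size rule of 2, which gave 221 and 129. With a pseudocount of 0.1 in place of 1 there were 1421 higher and 896 lower genes, and with a pseudocount of 5 there were 296 and 234. A minimum of 5 FPKM, which tests fewer genes, gave 522 and 409. The counts stayed within 1.5 times with equal total FPKM (897 and 645) and with centring on the median (902 and 644). They also did so with the other deposited estimates (777 and 696) and with all chromosomes (1048 and 734). Dropping the minimum could not change the counts. With a pseudocount of 1, a gene under 1 FPKM in both libraries cannot reach the size rule. Of the 269 named genes past the size rule, 264 kept their call under centring and under equal totals, and 252 with the other estimates, which lost 10 and gave no value for 7. A pseudocount of 5 kept 136. All 24 list medians of at least 0.5 in absolute size kept their sign under the 7 alternatives run on them, but 17 moved by over 1.5 times under at least 1, 14 of them with a pseudocount of 5 and 0 with either rescaling. Over the alternatives the primitive streak median ran from -2.58 to -0.73, the epiblast median from -2.46 to -0.53, the trophoblast median from -1.99 to -0.34, the proneural median from 0.53 to 2.38, the erythroid median from 0.41 to 2.18 and the cartilage median from 0.50 to 1.35. Those of the globins, yolk sac secretory genes, uptake genes, epithelial genes, glycolysis, craniofacial mesenchyme and cardiac sarcomere stayed within 1.5 times. Medians near 0 changed sign for 4 lists with the other estimates, 2 with the minimum of 5 FPKM and 1 with no minimum. No paired analysis was possible because each group has 1 library. Limits are the single library per stage, the unknown depth, the sex of the RNA that differs with stage, and genes listed at 0 that the other table measures.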

Other observations

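Several genes with high or low ratios belong to no list described above. Ckb, the brain-type creatine kinase, stood at 4.03 FPKM at E8 and 64.4 FPKM at E10, an FPKM ratio of 16.0. Hist1h2ad, a histone H2A gene that belongs to a family of near copies, stood at 1.04 and 30.9 FPKM, and the split of reads among the copies is uncertain. Dnm3os, the antisense RNA that carries the microRNAs miR-199a and miR-214, was listed at 0 at E8 and stood at 14.1 FPKM at E10. Of the 15 highest ratios, 5 were small noncoding RNAs (7SK.9, Snora61, snoU105B.1, Snord49a and Snord82).

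Among the genes listed at 0 at E10, Lgals2, a galectin, stood at 13 FPKM at E8 and Pla2g12b, a phospholipase-related protein of lipoprotein secretion, at 10.7 FPKM. Slc39a5, a zinc transporter, stood at 6.22 FPKM. Of 180 measured solute carriers, 10 were higher and 21 lower, with a median of -0.05, beside 7.14% higher and 4.69% lower over all genes. The lowest was Slc13a4, a sulfate transporter known from yolk sac and placenta, at 23.9 and 0.312 FPKM (-4.24), and after Slc4a1 the highest was Slc25a12, a mitochondrial aspartate and glutamate carrier, at 3.11 and 14.5 FPKM (1.91). Slc2a4, the insulin-regulated glucose transporter of muscle and fat, was higher (1.11 and 6.22 FPKM, 1.77), while Slc2a1, Slc2a2 and Slc2a3 were lower.

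The share of genes past the size rule differed with level. It was 13.7% of the 2553 genes whose higher value lay between 1 and 3 FPKM, 14.9% between 3 and 10, 10.1% between 10 and 30, 7.88% between 30 and 100, and 11.1% of the 929 genes over 100 FPKM.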
